A study of Rattus norvegicus with 6 samples.

Results

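The glucocorticoid receptor, the related mineralocorticoid receptor and 8 genes known as targets or partners of corticosteroid signalling were examined in the lumbar spinal cord of rats with bone cancer pain (BCP) and of sham-operated rats. The members were fixed by name as Nr3c1, Nr3c2, Fkbp5, Sgk1, Tsc22d3, Zbtb16, Pdk4, Hsd11b1, Cdkn1a and Errfi1, and a row of the deposited gene table was taken where its gene name equalled one of them. The 10 names matched 12 of the 30957 rows, because Nr3c1 and Tsc22d3 had 2 rows each, and all 12 rows passed the filter on low counts that kept 14908 rows. Expression was measured by strand-specific sequencing of RNA depleted of ribosomal RNA, in 3 libraries per group.

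Both groups were adult female Wistar rats whose left tibia was injected with Walker 256 cells, a rat mammary carcinoma line, and the ipsilateral lumbar enlargement was taken on day 14 after its meninges had been removed. BCP rats received living cells and sham-operated rats heat-killed cells, so the surgery and the injection were common to both groups and the living tumour was the difference between them. The rats were anesthetized with intraperitoneal phenobarbital sodium for the injection, and all were deeply anesthetized before tissue was taken. The sources used here give no age and name no transgene and no other drug. They say only that the libraries are separate samples, so the p-values measure the spread between these samples. Gene counts totalled 13366905 to 15004290 per sham library and 11779485 to 13764758 per BCP library.

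The glucocorticoid receptor is a hormone-activated transcription factor. Without hormone it is held in the cytoplasm by HSP90 and its co-chaperones, and with corticosterone, the main glucocorticoid of rats, it enters the nucleus, switches on genes such as Fkbp5, Sgk1, Tsc22d3, Zbtb16 and Pdk4, and restrains many genes of inflammation. The mineralocorticoid receptor binds the same hormone with higher affinity, and both are made in neurons and glia of the central nervous system.

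Promoter sequence from RefSeq (assembly GRCr8, 250 bases before to 50 bases after a gene start) was held for 12 windows of 7 of the names, namely 3 each of Sgk1 and Tsc22d3, 2 of Nr3c1 and 1 each of Pdk4, Errfi1, Fkbp5 and Cdkn1a, and Nr3c2, Zbtb16 and Hsd11b1 had no window. Windows of Tsc22d3 and Pdk4, both lower in BCP rats below, and of Sgk1, which did not pass the test, are printed from the strand of the gene, 5′ to 3′, with capitals marking the motif TATAAA.
Tsc22d3 (chrX:109009985-109010284, minus strand): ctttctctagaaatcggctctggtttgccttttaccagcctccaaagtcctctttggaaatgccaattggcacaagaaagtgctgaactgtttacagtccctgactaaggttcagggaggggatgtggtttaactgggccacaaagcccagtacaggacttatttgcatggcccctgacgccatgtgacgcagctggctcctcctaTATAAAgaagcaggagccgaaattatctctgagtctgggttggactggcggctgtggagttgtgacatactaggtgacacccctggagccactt
Pdk4 (chr4:34568280-34568579, minus strand): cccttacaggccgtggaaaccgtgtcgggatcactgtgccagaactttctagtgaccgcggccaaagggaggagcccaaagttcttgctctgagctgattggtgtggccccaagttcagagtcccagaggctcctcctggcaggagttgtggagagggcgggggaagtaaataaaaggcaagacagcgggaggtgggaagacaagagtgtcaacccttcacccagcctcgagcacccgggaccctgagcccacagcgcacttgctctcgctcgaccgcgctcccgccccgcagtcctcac
Sgk1 (chr1:24804782-24805081, minus strand): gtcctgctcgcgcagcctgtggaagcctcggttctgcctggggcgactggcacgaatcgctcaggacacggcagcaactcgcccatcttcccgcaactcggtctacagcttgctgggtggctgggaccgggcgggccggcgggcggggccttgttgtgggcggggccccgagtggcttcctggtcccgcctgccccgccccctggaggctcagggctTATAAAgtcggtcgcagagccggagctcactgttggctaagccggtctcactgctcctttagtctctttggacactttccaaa

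The palindromic response element of the receptor, searched as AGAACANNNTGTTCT (the same letters on both strands), was found in 5 of 33469 RefSeq windows, 0.0149% of them, and in 0 of the 12 windows of the members. A single arm of it, AGAACA on either strand, was found in 20.7% of all windows and in 0 of the 12. TATAAA, the core of a TATA box, searched on both strands, was found in 14.2% of all windows and in 4 of the 12, starting at base -44 from the gene start in the printed Tsc22d3 window, at -33 in the printed Sgk1 window, at -55 in another Sgk1 window and at -35 in Errfi1. The windows differed in base composition. Bases G and C made up 50.7% of the printed Tsc22d3 window, 61.3% of the Pdk4 window and 77% of the Fkbp5 window, against a median of 51.7% over all windows, and CG pairs numbered 5, 16 and 52, against a median of 7. These matches describe letters of the windows and were not tested against the expression values.

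On day 14 the glucocorticoid receptor was modestly higher and the mineralocorticoid receptor lower in BCP rats, and 3 target genes, Zbtb16, Pdk4 and Tsc22d3, were lower. By edgeR's quasi-likelihood test with Benjamini-Hochberg adjustment over all 14908 genes, 1 of the 12 rows was higher at an adjusted p-value under 0.05, where 15.8% of all tested genes were, and 4 were lower, where 12.1% of all tested genes were. No row passed the thresholds of the study, which add a change of more than 2-fold and were passed by 6.45% of all tested genes. None of the 12 passed them under any of the alternatives, DESeq2 and limma included, and 5 of the 12 had an unadjusted p-value under 0.05, as did 37.3% of all tested genes. Over all tested genes 2352 were higher and 1805 lower, against 2673 and 1257 with scaling by library size alone and 2134 and 2401 with upper-quartile scaling, and the counts of 1 and 4 members were the same under both. The 3 BCP libraries lay wholly above the 3 sham libraries in 1 row (21.7% of all tested genes) and wholly below them in 4 (19.8% of all tested genes). The median log2 fold change was -0.11 over the 12 rows, 8 of which were below 0, and -0.01 over all tested genes. Over the 8 rows of the targets Fkbp5, Sgk1, Tsc22d3, Zbtb16, Pdk4, Cdkn1a and Errfi1 it was -0.14.

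**Figure D1:**
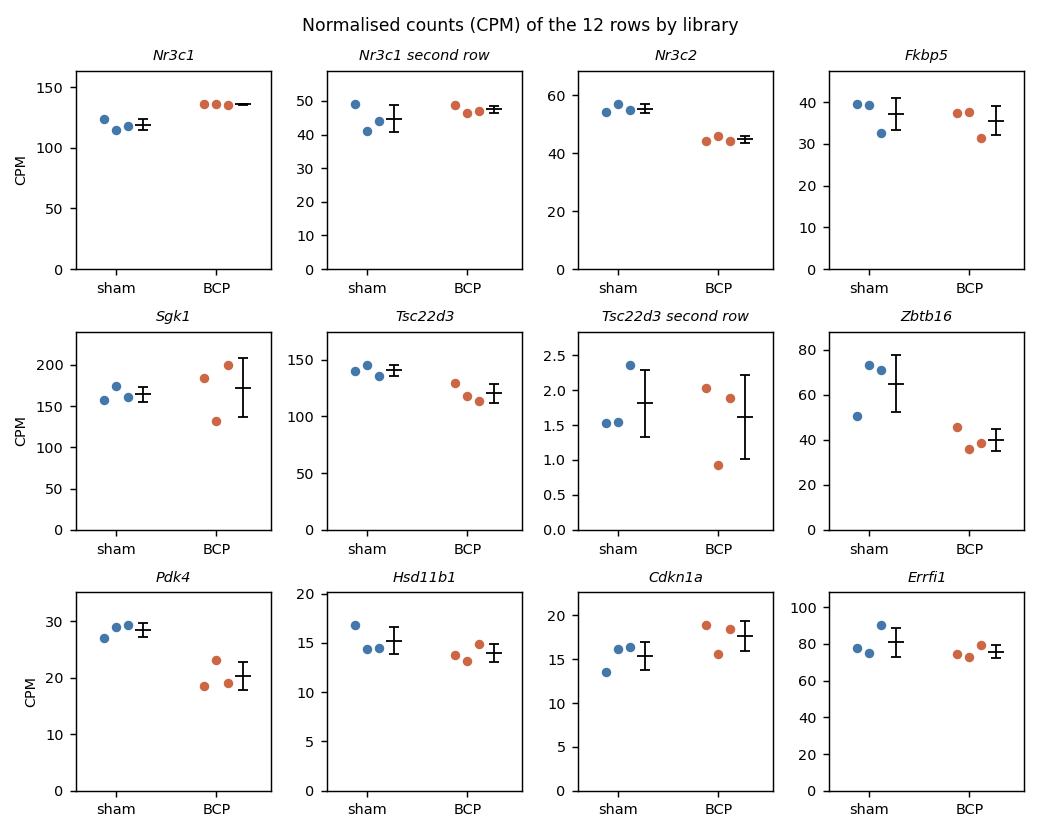
CPM, counts scaled to library size (y axis, from 0), of the 12 rows, 1 point per library, with the group mean and SD at the right of each group (n = 3). Points of sham and BCP rats do not overlap for Nr3c1, which is higher in BCP rats at 136 against 119 CPM, and for Nr3c2, Tsc22d3, Zbtb16 and Pdk4, which are lower.

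Nr3c1, the glucocorticoid receptor gene, was first examined through its longer row, ENSRNOG00000014096, at chromosome 18, 31728373 to 31749647 of Rnor_6.0. Its level, in CPM (counts scaled to a common library size), was 124, 115 and 118 CPM in sham libraries 1, 2 and 3 and 136, 136 and 135 CPM in BCP libraries 1, 2 and 3. Each BCP library lay above each sham library, and the BCP libraries were close together. The means were 119 ± 4.59 CPM (SD, n = 3) in sham and 136 ± 0.442 CPM (SD, n = 3) in BCP rats, a log2 fold change of 0.19 (SE 0.05, edgeR adjusted p = 0.00567), which is 14.4% higher. The call held in 16 of 16 alternatives, between 0.16 and 0.23, and the largest adjusted p was 0.0297. The RNA came from whole tissue, so more cells that express a gene and more RNA per cell cannot be told apart, here and for every gene that follows.

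The shorter row named Nr3c1, ENSRNOG00000048800, spans 1239 bases at chromosome 18, 32669427 to 32670665, 919779 bases beyond the end of the longer one. RefSeq lists 1 gene of that symbol with a span of 121726 bases, so what the shorter row counts is uncertain, and reads could be split between the rows. It had 49.2, 41.0 and 44.1 CPM in sham and 48.8, 46.5 and 47.1 CPM in BCP libraries. The groups overlapped, and the log2 fold change was 0.09 (SE 0.08, edgeR adjusted p = 0.462). With the rows summed, a setting chosen after seeing the data, the receptor was still higher by 0.16 on the log2 scale (edgeR adjusted p = 0.0153).

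Nr3c2, the mineralocorticoid receptor gene (ENSRNOG00000034007, chromosome 19, 34448289 to 34752695), went the other way. It was at 54.3, 57.1 and 54.8 CPM in sham libraries and at 44.1, 46.0 and 44.1 CPM in BCP libraries. The groups were apart by more than the spread within either of them. The mean fell from 55.4 ± 1.47 to 44.7 ± 1.11 CPM (SD, n = 3 each), a log2 fold change of -0.31 (SE 0.07, edgeR adjusted p = 0.00164). The call held in 16 of 16 alternatives, between -0.34 and -0.25.

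The balance of the receptors was compared per length, as the ratio of the FPKM values (fragments per length and depth) of the longer Nr3c1 row and Nr3c2 within each library. The ratio was 1.18, 1.04 and 1.12 in sham libraries and 1.597, 1.534 and 1.589 in BCP libraries. On the log2 scale the mean ratio was 0.15 ± 0.09 in sham and 0.65 ± 0.03 in BCP rats (SD, n = 3), a difference of 0.50. The groups did not overlap, and the exact two-sided permutation test gave p = 0.1, the smallest value that 3 against 3 libraries allow. In FPKM too, the longer Nr3c1 row was higher and Nr3c2 lower in every BCP library than in any sham library. Those values fixed this outcome in advance, so the ratio restates them and is not a further test. With the shorter Nr3c1 row the ratios were 1.92, 1.53 and 1.71 in sham and 2.35, 2.15 and 2.27 in BCP libraries, a difference of 0.40 with the same exact permutation p of 0.1.

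Hsd11b1 encodes the hydroxysteroid dehydrogenase that regenerates active glucocorticoid inside cells, and it had the lowest level per length of the 12 rows. The gene (ENSRNOG00000005861, chromosome 13, 111926442 to 111972603) had 16.8, 14.4 and 14.5 CPM in sham and 13.8, 13.1 and 14.9 CPM in BCP libraries. The groups overlapped and the difference of -0.13 on the log2 scale (SE 0.12) did not pass (edgeR adjusted p = 0.474).

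Among the target genes, Zbtb16 had the widest difference. It encodes the zinc finger transcription factor PLZF, is strongly induced by glucocorticoids in many cells, and lies at chromosome 8, 52985313 to 53146953 (ENSRNOG00000029980). Its level was 50.6, 73.3 and 70.8 CPM in sham and 45.5, 35.8 and 38.6 CPM in BCP libraries. All BCP libraries lay below all sham libraries, but sham library 1 stood nearer to BCP library 1 than to the other sham libraries. The mean was 64.9 ± 12.4 CPM in sham and 39.97 ± 4.98 CPM in BCP rats (SD, n = 3), a log2 fold change of -0.70 (SE 0.17, edgeR adjusted p = 0.0306), which is -38.6% on the linear scale. The call was lost in 6 of 16 alternatives, among them the replicate block (adjusted p = 0.142) and the fits without sham library 2 (0.0558), sham library 3 (0.0634), BCP library 2 (0.109) or BCP library 3 (0.136), while the fold change stayed between -0.85 and -0.61 in all 16.

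Pdk4 encodes a pyruvate dehydrogenase kinase that turns cells from glucose to fatty acid oxidation, and its promoter window is printed above. The gene (ENSRNOG00000009565, chromosome 4, 30546664 to 30556814) had 27.1, 29.0 and 29.3 CPM in sham and 18.6, 23.1 and 19.2 CPM in BCP libraries. The lowest sham library was above the highest BCP library. The mean of 28.4 ± 1.19 CPM in sham and 20.3 ± 2.44 CPM in BCP rats (SD, n = 3) gave a log2 fold change of -0.49 (SE 0.10, edgeR adjusted p = 0.000768), the smallest adjusted p of the 12 rows. The difference held in 16 of 16 alternatives, between -0.59 and -0.42.

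Tsc22d3 encodes GILZ, a leucine zipper protein through which glucocorticoids restrain NF-kappaB and AP-1, and its longer row (ENSRNOG00000056135, chromosome X, 111884295 to 111887906) had the highest level per length of the 12. It was at 140, 146 and 135 CPM in sham and at 129, 118 and 114 CPM in BCP libraries. Again no BCP library reached the lowest sham library. The mean was 140 ± 5.07 CPM in sham and 120 ± 8.16 CPM in BCP rats (SD, n = 3), a log2 fold change of -0.23 (SE 0.06, edgeR adjusted p = 0.00393), and the call held in 16 of 16 alternatives, between -0.27 and -0.18. A shorter row of the same name (ENSRNOG00000060899, chromosome X, 111942102 to 111942749), 54195 bases away and inside the reach of 1 RefSeq gene of 59980 bases, had only 20, 22 and 35 counts in sham and 24, 13 and 25 counts in BCP libraries. Its log2 fold change of -0.18 had an SE of 0.34 (edgeR adjusted p = 0.74).

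Fkbp5, a target commonly read as a gauge of glucocorticoid action, encodes a co-chaperone that lowers the affinity of the receptor for hormone. The gene (ENSRNOG00000022523, chromosome 20, 7976713 to 8019020) had 39.7, 39.3 and 32.6 CPM in sham and 37.5, 37.7 and 31.5 CPM in BCP libraries. Each group held a pair of libraries near the top of the range and library 3 below them, and the groups overlapped almost entirely. The means of 37.2 ± 3.94 and 35.6 ± 3.52 CPM (SD, n = 3) gave a log2 fold change of -0.06 (SE 0.09, edgeR adjusted p = 0.672), between -0.15 and 0.02 in the alternatives.

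Sgk1 encodes a kinase that is induced by both corticosteroid receptors and acts on ion transport, and in these libraries 1 BCP library decided its result. The gene (ENSRNOG00000011815, chromosome 1, 24185435 to 24302298) had 157, 174 and 162 CPM in sham and 185, 132 and 201 CPM in BCP libraries. BCP libraries 1 and 3 were above all sham libraries and BCP library 2 was below them all. With all libraries the log2 fold change was 0.07 (SE 0.18, edgeR adjusted p = 0.831), and without BCP library 2 it was 0.23 (edgeR adjusted p = 0.00791).

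Cdkn1a and Errfi1 did not pass the test. Cdkn1a, the cell cycle inhibitor p21 that the glucocorticoid receptor induces (ENSRNOG00000000521, chromosome 20, 6351458 to 6358864), had 13.5, 16.2 and 16.4 CPM in sham and 18.9, 15.7 and 18.4 CPM in BCP libraries. BCP library 2 lay among the sham libraries, and the log2 fold change was 0.19 (SE 0.12, edgeR adjusted p = 0.247). Errfi1, a feedback inhibitor of the EGF receptor (ENSRNOG00000058186, chromosome 5, 167952728 to 167966009), had 77.5, 75.2 and 90.0 CPM in sham and 74.6, 72.7 and 79.5 CPM in BCP libraries, which overlapped. Its log2 fold change was -0.10 (SE 0.07, edgeR adjusted p = 0.321).

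**Figure D2:**
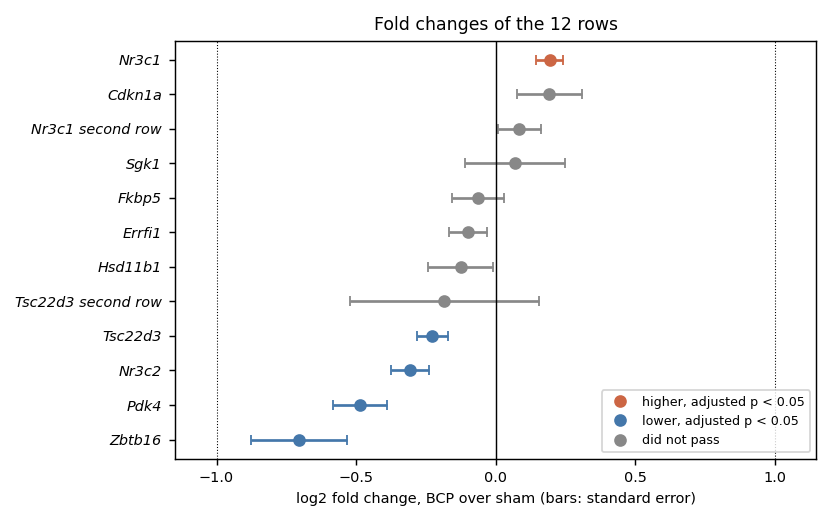
Log2 fold change of BCP over sham rats (x axis) of the 12 rows, ordered by value, with bars of 1 standard error and dotted lines at the study's 2-fold thresholds. Nr3c1 at 0.19 is the row that passed upwards, Tsc22d3, Nr3c2, Pdk4 and Zbtb16 passed downwards between -0.23 and -0.70, and no row reaches a dotted line.

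Levels were compared between genes only per length. The mean FPKM over the 6 libraries was 67.1 for Tsc22d3, 37.2 for the shorter Nr3c1 row, 34.3 for Sgk1, 26.2 for Errfi1 and 25.1 for the longer Nr3c1 row. It was 19.9 for Zbtb16, 19.0 for Nr3c2, 15.4 for Pdk4 and 10.7 for Fkbp5. The lowest were Cdkn1a at 6.15, the shorter Tsc22d3 row at 4.96 and Hsd11b1 at 3.01. Tsc22d3, Pdk4 and Fkbp5 did not overlap the next lower row in any library, and every other neighbouring pair in this order overlapped. Zbtb16 ranged from 13.9 to 27.6 FPKM and so overlapped both Pdk4 and Errfi1.

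**Figure D3:**
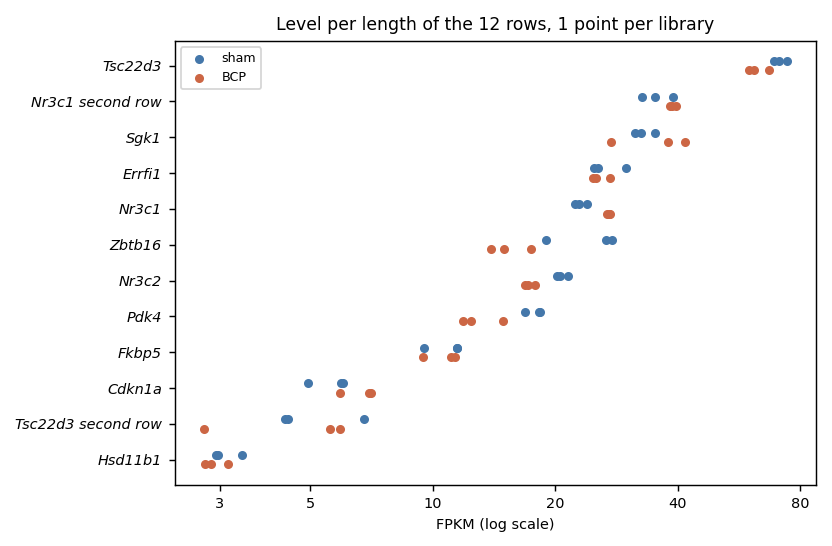
Level per length (FPKM, x axis on a log scale) of the 12 rows, 1 point per library, sham above BCP within each row. Tsc22d3 lies between 59.7 and 74.3 FPKM in all 6 libraries and Hsd11b1 between 2.76 and 3.40, and most neighbouring rows overlap.

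The tested genes whose pattern over the 6 libraries was most like that of Nr3c1, by the root mean square difference of log2 CPM after centring each gene on its mean, were Top2b (0.0149), Msl3 (0.0150) and Ptges3 (0.0166). Top2b encodes a DNA topoisomerase, Msl3 a chromatin protein and Ptges3 the co-chaperone p23, a known partner of the receptor complex. For Fkbp5 the nearest genes were Asic2 (0.0367), an acid-sensing ion channel, Dph5 (0.0396) and Hdhd2 (0.0434), all at a greater distance than those of Nr3c1.

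The deposited lncRNA table was searched within 10 kb of the members, the distance the study used for targets in cis. There were 12 such lncRNAs near 6 of the names, of which 7, near 5 names, had enough counts to be tested. Of these 7, 1 passed, where 1.97% of the 12157 tested lncRNAs did, and 5 had a fitted fold change below 0. NONRATT028521.2, 695 bases long at chromosome 8, 52980233 to 52980927, lies 4386 bases from Zbtb16. It had 51.9, 72.0 and 77.6 CPM of the lncRNA counts in sham and 33.3, 39.0 and 29.1 CPM in BCP libraries. Like Zbtb16 it was lower in every BCP library than in any sham library, and sham library 1 was the lowest of its group for both. The mean was 67.2 ± 13.5 CPM in sham and 33.8 ± 4.95 CPM in BCP rats (SD, n = 3), a log2 fold change of -0.99 (SE 0.19, edgeR adjusted p = 0.0464). The call held in 5 of 15 alternatives, with adjusted p-values from 0.0127 to 0.186, and was lost without sham library 2 or 3 and without any 1 of the BCP libraries.

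The other tested lncRNAs did not pass. NONRATT021220.2, 604 bases from Pdk4, had 122, 99.1 and 107 CPM in sham and 83.9, 92.2 and 76.9 CPM in BCP libraries. The groups did not overlap, as at Pdk4 itself, and the log2 fold change was -0.37 (SE 0.12, edgeR adjusted p = 0.229). NONRATT002014.2 overlaps Sgk1 and had 53.7, 82.0 and 74.7 CPM in sham and 97.4, 47.3 and 82.2 CPM in BCP libraries, so that BCP library 2 was the lowest of its group here as in Sgk1 (log2 fold change 0.11, edgeR adjusted p = 0.93). NONRATT017172.2, which overlaps the end of Cdkn1a, had 35.9 ± 1.09 CPM in sham and 43.7 ± 2.48 CPM in BCP rats (SD, n = 3, log2 fold change 0.28, edgeR adjusted p = 0.444). NONRATT014188.2 lies 7809 bases from Nr3c2, and NONRATT014612.2 overlaps the end of Nr3c2. Their log2 fold changes were -0.21 and -0.81, and NONRATT028522.2 within Zbtb16 had -0.90, with edgeR adjusted p-values between 0.466 and 0.664. The 5 lncRNAs not tested included NONRATT002016.2 within Sgk1, with 5, 6 and 5 counts in sham and 0 in each BCP library. The libraries were strand-specific, but the use of strand in counting is not given in the sources used here. Reads of a lncRNA that overlaps a member can therefore not be told apart from those of the member. Whether a lncRNA beside a member, such as those near Pdk4 and Zbtb16, is a transcript separate from the member was not tested.

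**Figure D4:**
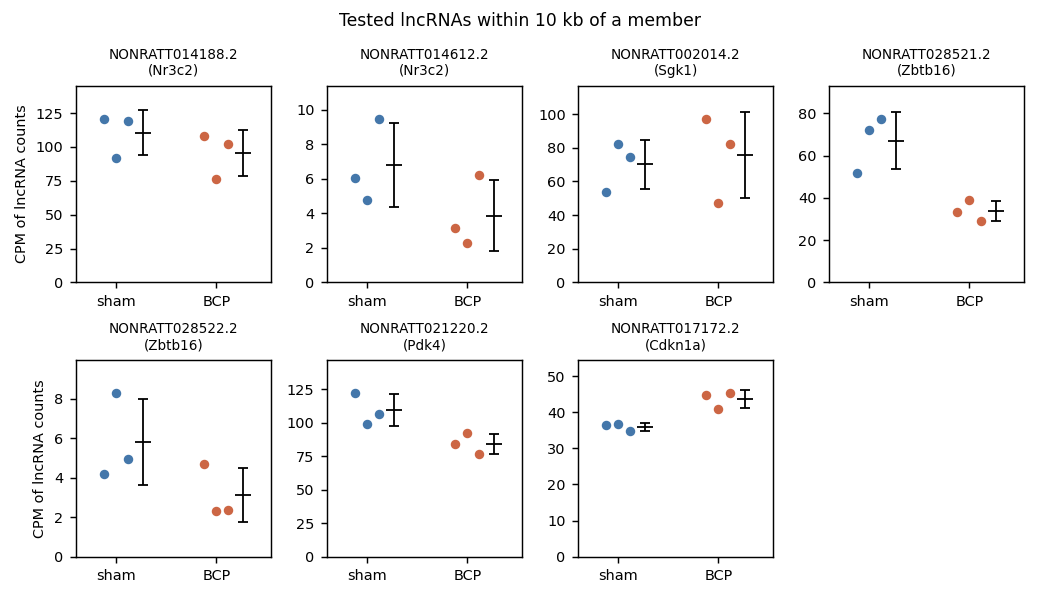
CPM of the lncRNA counts (y axis, from 0) of the 7 tested lncRNAs within 10 kb of a member, 1 point per library, with the group mean and SD (n = 3) at the right of each group. NONRATT028521.2 near Zbtb16 falls from a mean of 67.2 to 33.8 CPM with no overlap, and NONRATT002014.2 in Sgk1 has its lowest point in BCP library 2.

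The rest of the pathway was read from lists of genes by role, described by their counts and medians with no test of the list. Upstream of the receptor, 13 genes of steroid synthesis, transport and other receptors were tested, and 2 were higher and 0 lower, with 1 lower at an unadjusted p-value under 0.05. Tspo, the outer mitochondrial protein of cholesterol import that microglia also express, rose from 1.27 ± 0.455 to 6.41 ± 2.0 CPM (SD, n = 3, log2 fold change 2.35, edgeR adjusted p = 7.6e-06). H6pd, which supplies the cofactor of the Hsd11b1 enzyme, rose from 19.4 ± 2.06 to 24.2 ± 1.62 CPM (log2 fold change 0.32, edgeR adjusted p = 0.0237, and 0.0533 by DESeq2). Hsd11b2, the enzyme that inactivates glucocorticoids, had 3, 5 and 3 counts in sham and 1, 3 and 7 counts in BCP libraries and was too low to test.

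Of 15 tested chaperones of the receptor, 2 were higher and 4 lower, with a median log2 fold change of -0.06. Ptges3 rose by 0.19 (edgeR adjusted p = 0.00715) and Bag1, an HSP70 cofactor, by 0.24 (edgeR adjusted p = 0.022). Fkbp4, the immunophilin that competes with the Fkbp5 protein for the complex and aids nuclear entry, fell from 260 ± 6.0 to 226 ± 8.80 CPM (SD, n = 3, log2 fold change -0.20, edgeR adjusted p = 0.00217). Dnajb1 (-0.28), the ubiquitin ligase Stub1 (-0.21) and Ahsa1 (-0.17, lost with scaling by library size alone) were also lower. Hsp90aa1 was listed at 0 in all 6 libraries. How reads with several locations were counted is not given in the sources used here. A gene listed at 0 in all libraries, here and below, may therefore not have lacked RNA.

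Of 15 tested coregulators, 3 were higher and 2 lower, with a median of 0.09. Nrip1, a corepressor of nuclear receptors, rose from 72.7 ± 0.807 to 93.3 ± 0.475 CPM (SD, n = 3, log2 fold change 0.36, edgeR adjusted p = 3.12e-05). The coactivators Ncoa3 (0.30) and Med1 (0.23) were higher, and the coactivator Ppargc1a (-0.25, edgeR adjusted p = 0.0323, and 0.0557 by DESeq2) was among those lower.

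Other genes known to be induced by glucocorticoids did not move one way. Of 38 tested rows, 11 were higher and 12 lower, with a median of -0.00, and with scaling by library size alone 11 were higher and 7 lower. Per1, a clock gene with glucocorticoid response elements, had 775, 979 and 960 counts in sham and 573, 554 and 538 counts in BCP libraries, with no overlap. It fell from 64.1 ± 4.68 to 42.9 ± 4.82 CPM (SD, n = 3, log2 fold change -0.58, edgeR adjusted p = 1.97e-05). Gjb6, the astrocyte connexin (-0.51), the stress gene Ddit4 (-0.45), Klf15 (-0.38, edgeR adjusted p = 0.015), the small GTPase Rhob (-0.21) and Klf9 (-0.20, edgeR adjusted p = 0.0276, and 0.0732 with scaling by library size alone) were lower as well. Hif3a, which had 35, 88 and 92 counts in sham and 32, 27 and 20 counts in BCP libraries, fell by 1.31 on the log2 scale (edgeR adjusted p = 0.00691), and sham library 1 lay among the BCP libraries.

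Other rows of the same list were higher, and those with the smallest p-values are named first. Cebpb (1.90) and Cebpd (1.81), transcription factors of the inflammatory response, the metallothionein Mt1 (1.86 in its main row) and the phagocytic receptor Mertk (0.54) were higher, and Nfkbia, the inhibitor of NF-kappaB, rose from 26.0 ± 1.32 to 37.7 ± 3.57 CPM (SD, n = 3, log2 fold change 0.54, edgeR adjusted p = 0.000101). Dusp1, a phosphatase of MAP kinases, had 263, 452 and 511 counts in sham and 302, 247 and 278 counts in BCP libraries, which overlapped through sham library 1, and did not pass (log2 fold change -0.43, SE 0.26, edgeR adjusted p = 0.307).

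Genes that the receptor is known to hold down in inflammation were higher. Of 12 tested rows 11 were higher and 0 lower, with a median log2 fold change of 3.40, or 3.09 when the 3 genes with at most 3 counts in every sham library are set against a floor of 3 counts per library. Of the 12 rows, 6 had fewer than 10 counts in every sham library and passed the filter on low counts through the BCP libraries alone, so the filter itself favoured rows that were higher. Of the other 6 rows 5 were higher and 0 lower, with a median of 1.93. These 6 include Ccl5, which had 11, 11 and 0 counts in sham libraries and so also needed its BCP counts to pass the filter. Vcam1, an adhesion molecule, rose from 24.7 ± 0.903 to 51.4 ± 6.75 CPM (SD, n = 3, log2 fold change 1.06, edgeR adjusted p = 2.82e-08). The chemokine Ccl2 had 2, 4 and 4 counts in sham and 102, 112 and 96 counts in BCP libraries (edgeR adjusted p = 2.11e-10), while Ccl3 and Ccl4 had at most 2 counts in any sham library and 31 to 62 counts in BCP libraries. Markers of microglia and T cells moved with this list. Of 13 tested microglial markers 10 were higher and 0 lower, and their summed level rose from 410 to 515 CPM in sham libraries to 1174 to 1458 CPM in BCP libraries. All 7 tested T cell markers were higher, from 5.998 to 6.556 CPM in sham to 49.5 to 57.5 CPM in BCP libraries in sum, with Cd3d at 0 in the 3 sham libraries. But 5 of the 7 had fewer than 10 counts in every sham library and were tested through their BCP counts alone. Lck, with 20, 12 and 9 counts in sham libraries, also needed its BCP counts to pass the filter. The largest part of the T cell sum in both groups was Cd4, at 5.09 ± 0.624 CPM in sham and 21.9 ± 3.21 CPM in BCP rats (SD, n = 3). The microglial gene Siglech was listed at 0 in all libraries. Their part in the changes of the list and of the members was not tested.

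Around the single targets, the lists divided by role. For Pdk4, 18 genes of PPAR signalling and fatty acid oxidation held 3 higher and 3 lower, with a median of -0.02. The kinases of the same family moved in both directions, with Pdk1 (0.50, edgeR adjusted p = 0.000669) and Pdk3 (0.22, edgeR adjusted p = 0.0125) higher and Pdk2 lower, from 72.0 ± 5.15 to 58.1 ± 2.20 CPM (SD, n = 3, log2 fold change -0.31, edgeR adjusted p = 0.00134). Ucp2, a mitochondrial carrier, rose by 1.63. Cpt1a (-0.19, but limma on log2(FPKM + 1) gave adjusted p = 0.0715) and Foxo3 (-0.24, edgeR adjusted p = 0.017, and 0.0507 with scaling by library size alone) were lower.

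For Sgk1, 16 partners in mTORC2 signalling and ion transport held 0 higher and 4 lower, with a median of -0.07, and 2 higher and 2 lower with scaling by library size alone. Ndrg1, a phosphorylation substrate of SGK1, fell from 359 ± 9.50 to 267 ± 17.7 CPM (SD, n = 3, log2 fold change -0.43, edgeR adjusted p = 1.49e-06). The sodium pump subunit Atp1b1 (-0.14, but limma on log2(FPKM + 1) gave adjusted p = 0.113) was also lower. Nedd4l (0.18, edgeR adjusted p = 0.0612) and the sodium channel subunit Scnn1a (0.10, edgeR adjusted p = 0.817) did not pass. For Errfi1, 10 ErbB receptors and ligands held 0 higher and 3 lower, with a median of -0.11. These were Erbb3 (-0.36, edgeR adjusted p = 1.1e-05), Erbb4 (-0.36, edgeR adjusted p = 4.25e-05) and Tgfa (-0.25, edgeR adjusted p = 0.00362), while Egfr, the receptor that Errfi1 inhibits, was at 19.99 ± 1.10 and 20.4 ± 0.987 CPM (SD, n = 3, edgeR adjusted p = 0.858). Of 9 tested relatives of Tsc22d3, Zbtb16 and Fkbp5, edgeR passed 0, with 2 lower at an unadjusted p-value under 0.05, DESeq2 and limma passed 0, and edgeR with upper-quartile scaling called 2 lower. The 2 rows of Tsc22d4 were listed at 0 in all libraries.

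**Figure D5:**
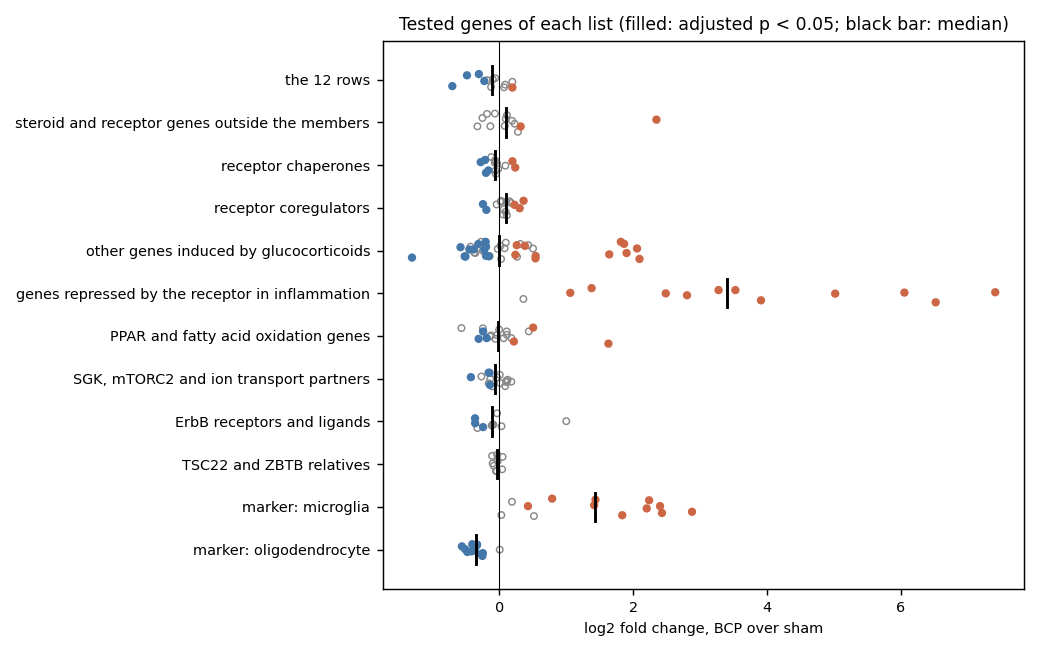
Log2 fold change of BCP over sham rats (x axis) of each tested gene of the 12 rows, the pathway lists named in the text and 2 marker lists, with filled points for an adjusted p-value under 0.05 and a black bar at the median. The median of the genes that the receptor represses in inflammation is 3.40, with 6 of its 12 rows tested through BCP counts alone, and that of the microglial markers is 1.44, whereas those of the 12 rows and the other pathway lists drawn here lie between -0.11 and 0.09.

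Markers of the main cell types of the tissue also differed between the groups. The oligodendrocyte markers, the marker list with the highest summed level, were lower in 11 of 12 tested genes and higher in 0. Their median log2 fold change was -0.36, and their summed level was 40335 to 45412 CPM in sham and 30013 to 32849 CPM in BCP libraries. Of 8 tested markers of oligodendrocyte precursors 4 were lower and 0 higher, of 11 neuronal markers 5 were lower and 0 higher, with medians of -0.22 and -0.11, and the summed level of neuronal markers was 4298 to 4583 CPM in sham and 4128 to 4415 CPM in BCP libraries. Of 10 astrocyte markers 1, Gfap (0.80), was higher and 5 were lower, with a median of -0.09. Of 10 endothelial markers 2 were higher and 0 lower, with a median of -0.01. The part of these shifts in the changes of the members was not tested.

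The remaining marker lists bear on other tissue in the dissection and on handling. Markers of blood and red cells were higher in 5 of 6 tested genes and lower in 1, with a summed level of 244 to 261 CPM in sham and 475 to 697 CPM in BCP libraries. Of 9 pericyte and smooth muscle markers 1 was higher, of 7 markers of meninges and fibroblasts 2 were lower, and of 7 of nerve root and skeletal muscle 1 was higher and 2 were lower. Of 5 tested markers of monocytes, macrophages and neutrophils 2 were higher, 1 of them tested through its BCP counts alone. Of 11 immediate early and handling genes 3 were higher and 2 lower, with a median of 0.09.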

How the data were processed

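RNA of 6 libraries was read from the tables the authors deposited. Per the methods and the submitters' processing notes, the authors cleaned the reads (Seqtk), aligned them to Rnor_6.0 (HISAT2 2.0.4) and quantified FPKM (StringTie 1.3.0), and they deposited raw counts of genes and lncRNA transcripts beside FPKM values. Which program counted reads, whether it used strand and how it treated reads with several locations is not given in the sources used here, and such reads could be split between the rows of 1 name. Groups came from the sample labels.

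The main test was edgeR 4.0.16 (R 4.3.3): filterByExpr, TMM scaling, a quasi-likelihood model of condition with robust dispersions across all genes or all lncRNAs, and Benjamini-Hochberg adjustment. A call is an adjusted p-value under 0.05. CPM are counts scaled to the TMM-adjusted library size. Standard errors were derived from the fold change and its F statistic. The deposited FPKM served for levels per length and the receptor ratio, which was tested exactly with scipy 1.17.1. Alternatives were DESeq2 1.42.0, limma 3.58.1 on log2(FPKM + 1) and log2(FPKM + 0.1), no filter, at least 10 counts in every library, other scalings, a test against a 2-fold change, the replicate number as a block, and each library left out in turn. Summing the rows of 1 name and the ratio with the shorter Nr3c1 row were added after the data were seen. The fits were tested on simulated data drawn with a biological coefficient of variation of 7.7%, that of the genes. The lncRNAs had 33.4%, so the simulation does not show how their fits perform at their own spread. Counting error alone is covered by the floor of 3 counts per library.

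The members, the pathway lists and the 13 marker lists were chosen with earlier results of these data known. Some genes, and a list that rests on one of them, are not reported here. Named from each list were up to 4 genes per direction with the smallest p-values among those called, genes that the rule names whatever their result (such as Per1, Dusp1, Fkbp4 and Egfr), and marker genes at or near 0. Ensembl identifiers and coordinates are those of the deposited table. Promoter windows came from RefSeq on GRCr8, and no coordinate was carried between builds. Python 3.11.15 with matplotlib 3.10.9 made the plots.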

Additional observations from a re-analysis of the deposited data

How the results depend on the processing

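Of 190 refits of the fold changes of the 12 rows, 183 kept their side of the threshold. In 6 the call was lost (all Zbtb16) and in 1 it was gained (Sgk1 without BCP library 2). Some rows that did not pass changed sign. Without BCP library 3 the log2 fold change was 0.02 for Fkbp5 and -0.05 for Sgk1. For the shorter Tsc22d3 row it was 0.06 without sham library 3 and 0.11 without BCP library 2. The number of members higher ranged from 1 to 2 with a library left out, the number lower from 3 to 4, and the number past the 2-fold thresholds was 0 throughout. The number of lncRNAs near members that passed was 1, and it was 0 with no filter on low counts, with library size only, with the replicate block and with limma on log2(FPKM + 1) or log2(FPKM + 0.1), and from 0 to 1 with a library left out. The log2 receptor ratio differed by 0.50, from 0.45 to 0.55 with a library left out, and by 0.40 with the shorter Nr3c1 row. The labels do not say that the replicate numbers pair the samples. Deviations of libraries with the same number correlated at -0.11, 0.04 and -0.04, against -0.12 to 0.14 for other pairs. These 3 values cannot exclude a pairing. With the replicate block 1 member was higher and 3 were lower, Zbtb16 being the one lost. Over all genes, 1805 were lower, against 975 and 966 with limma on FPKM with pseudocounts of 1 and 0.1, and 2352 were higher and 1805 lower, against 2673 and 1257 with library size only and 2134 and 2401 with upper-quartile scaling. The median log2 fold change of all tested genes was -0.05 with upper-quartile scaling and 0.03 with library size only. Of lncRNAs 239 passed, against 157 with no filter, 64 with the replicate block and 76 to 172 with a library left out. The biological coefficient of variation was 33.4% for lncRNAs and 7.72% for genes, and 5 of the 12 lncRNAs near members had too few counts to be tested. With 2 libraries in a group the fit assumes that they vary like the others.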

Other observations

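Libraries were uneven within the groups for the members, a pattern noticed after their values were seen. Sham library 1 was the lowest of the 3 sham libraries in 6 of the 12 rows and in 17 of the 38 tested rows of other genes induced by glucocorticoids (44.7%), against 31.8% of all tested genes. BCP library 2 was the lowest of its group in 7 of the 12 rows, and in 14 of the 38 (36.8%), against 32.0% of all tested genes. The rows of a list share libraries and regulation and are not independent, so these shares are given as descriptions. In the 5 lncRNAs near members that were too low to test, the largest count in any library was 14.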
